A study of Mus musculus with 3 samples.

Results

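The sites described here lie in 5 mouse genes of the neurexin and neuroligin adhesion system, Nrxn3, Nlgn1, Cntnap2, Cntnap5a and Cntnap5c. They were taken by gene name from the authors' deposited table of sites at which PARP-1 occupancy differed between cocaine and saline, and they number 7 of the 1727 sites in it. PARP-1, an abundant nuclear enzyme that attaches ADP-ribose chains to itself and to other chromatin proteins, was mapped by ChIP-seq in the nucleus accumbens, a ventral striatal region of the brain's reward circuit. Intraperitoneal injections of cocaine (20 mg/kg) or saline were given to C57BL/6 mice daily for 7 days, and tissue was taken 30 min after the final injection. Tissue punches of 10 mice were pooled for each replicate, the antibody was a rabbit polyclonal against PARP-1, and 3 replicates per group are stated. The table carries 2 values per site for cocaine (n = 2) and 3 for saline (n = 3), and the replicate numbers below give only their order in a cell of the table. The series also has a DNA input sample labelled control, which has no column there. Punches hold every cell type of the region, so a change in the share of a cell type and a change of occupancy within it cannot be told apart, and the table carries no expression by which a cell type could be checked.

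Neurexins are presynaptic receptors that bind postsynaptic neuroligins across the synaptic cleft, and the pairing organizes the release machinery on one side and receptors and scaffolds on the other. Contactin-associated proteins have a neurexin-like extracellular part, and the best known of them, the product of Cntnap2, holds Kv1 potassium channels in place along axons. Several genes of these families are among the longest of the genome. The question put to the table was at which positions of these genes PARP-1 binding differed between the treatments.

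Of the 7 sites, 6 gained PARP-1 signal after cocaine, in Nlgn1, Cntnap2, Cntnap5a and Cntnap5c, and 1 lost it, in Nrxn3. Nlgn1, which encodes the postsynaptic adhesion molecule neuroligin-1, held 3 of the higher sites and each other gene held 1 site. All 7 passed limma's test on log2(value + 1) at a Benjamini-Hochberg adjusted p under 0.05. That says little about these genes, because 90.2% of all listed sites passed as higher and 5.27% as lower, on the libraries by which the authors had selected them. In the authors' deposited table the adjusted p of the 7 sites ran from 0.000601 to 0.00232, and 92.3% of all listed sites were higher and 6.66% lower at an adjusted p under 0.05. The limma log2 fold changes of the 6 higher sites ran from 1.31 to 1.80 with a median of 1.64, against a median of 1.69 over all higher listed sites. The change at Nrxn3 was -1.83, against a median of -1.75 over all lower listed sites.

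All 7 sites were annotated by the authors as gene body, away from promoters. All site positions are in mm9, as deposited, and whether a site lies in an exon or an intron was not given there. Measured from the start of the transcript the authors assigned to each site, the nearest was Nlgn1 site 3 at 160.6 kb and the farthest that of Cntnap5a at 874.9 kb. The median distance over the 685 gene body sites of the table was 43.8 kb, and 144 of them lay at or beyond 160.6 kb. Cntnap2, at 2241 kb, had the longest transcript of the 606 genes with a gene body site, whose median was 86.8 kb. The other transcripts measured 1382 kb for Nrxn3, 900.1 kb for the longer of the listed Nlgn1 transcripts, 895.5 kb for Cntnap5a and 640.8 kb for Cntnap5c. Of the 46 genes with a gene body site and a transcript at least as long as that of Cntnap5c, 32 held 1 site and 5 held 3 or more. Nlgn1 had 3.33 listed sites per Mb of transcript and Cntnap2 0.45, with a median of 1.24 over those 46 genes.

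**Figure D1:**
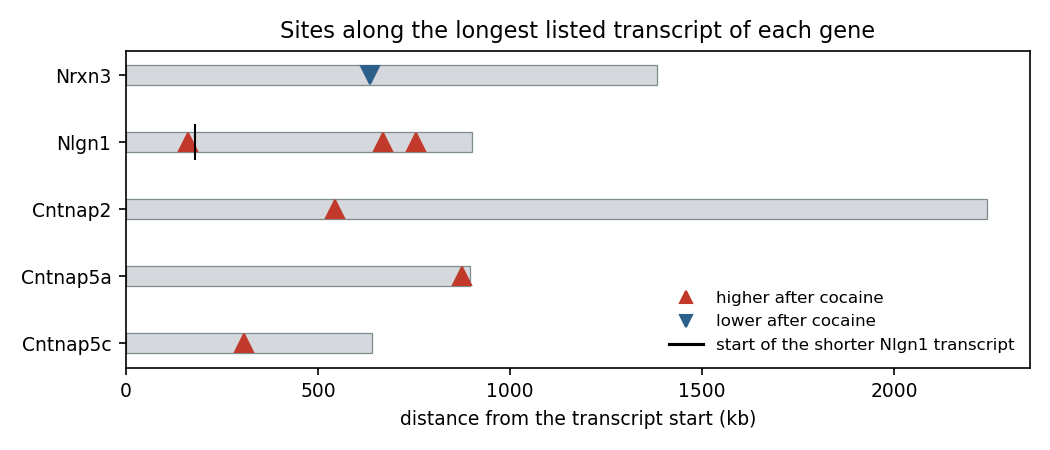
Position of the 7 sites along the longest listed transcript of each gene (grey bar), as distance from the transcript start in kb. Triangles pointing up are sites higher after cocaine and the one pointing down, in Nrxn3, is lower; the sites sit between 160.6 and 874.9 kb from the start of the transcript drawn, and the black line marks the start of the shorter Nlgn1 transcript.

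The Nlgn1 sites were assigned to different transcripts, and for this reason both Nlgn1 windows of the RefSeq promoter set used here are shown. In the table's mm9 annotation the starts of NM_138666 and NM_001163387 lie 178.6 kb apart on the minus strand. Nlgn1 site 3 falls between them, 160.6 kb into the longer transcript and 18.0 kb upstream of the start of the shorter one. Sites 1 and 2 lie within both transcripts. The RefSeq promoter table, in GRCm38.p6, gives 2 windows of 300 bases for Nlgn1 (250 before to 50 after a start), 177.9 kb apart. The windows were not matched to the 2 transcripts, whose starts lie 178.6 kb apart in mm9. They are not placed against the mm9 sites here, since the builds differ. In the lines below capitals mark the dinucleotide CG, which reads the same on both strands.
Nlgn1 upstream promoter, chr3:26331860-26332159, minus strand: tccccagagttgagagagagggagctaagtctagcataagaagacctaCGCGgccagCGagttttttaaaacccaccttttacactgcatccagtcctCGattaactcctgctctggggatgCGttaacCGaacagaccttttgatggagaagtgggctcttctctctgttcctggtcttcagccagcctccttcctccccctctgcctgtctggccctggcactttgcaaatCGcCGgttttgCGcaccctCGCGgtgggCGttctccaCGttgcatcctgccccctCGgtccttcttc
Nlgn1 downstream promoter, chr3:26153937-26154236, minus strand: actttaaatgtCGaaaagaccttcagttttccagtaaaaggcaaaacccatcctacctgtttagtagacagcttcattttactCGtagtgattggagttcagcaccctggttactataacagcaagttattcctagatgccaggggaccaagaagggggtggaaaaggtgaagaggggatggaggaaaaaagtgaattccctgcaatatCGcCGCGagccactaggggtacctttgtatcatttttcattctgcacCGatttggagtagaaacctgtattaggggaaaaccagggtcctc
The upstream window held 14 CG and 55.7% G and C, and the downstream window held 6 CG and 44.7%. Over the 32851 windows in the table, 94.6% held at least 1 CG, the median was 7 CG, and the median share of G and C was 52.7%. The table also had 2 windows for Cntnap2, with 14 and 3 CG, and 3 for Nrxn3, with 2, 6 and 16. No listed site of these genes was annotated to a promoter.

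Nrxn3 encodes neurexin-3, a presynaptic receptor for neuroligins and other ligands. Its site (chromosome 12, 90826801 to 90828100, plus strand, 635.6 kb from the start and 46.0% along the transcript) held 3.29 and 5.68 normalized reads after cocaine and 18.05, 16.41 and 19.65 after saline. Every saline value was at least 2.89 times every cocaine value, so the groups did not overlap. The counts rested on 4 and 5 reads against 17, 18 and 18 reads. Signal fell from 18.04 ± 1.62 (SD, n = 3) to 4.48 ± 1.69 (SD, n = 2), a limma log2 fold change of -1.83 ± 0.29 (SE) with a Benjamini-Hochberg adjusted p of 0.00537 (limma). From the reads and the relative depths, saline exceeded cocaine 4.18-fold. The exact Clopper-Pearson 95% interval of 2.04 to 9.64 covers at most counting error, not the selection of the site on these libraries. The authors' deposited table gave the best window of 1000 bp, the last part of the site (90827101 to 90828100), a log2 fold change of -2.43 against -2.01 for the whole site.

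Lower sites made up 18 of the 685 gene body sites, and the one in Nrxn3 ranked 9 of 18 by the size of the authors' log2 fold change. The nearest listed sites on either side of it, 849.0 kb before and 9523 kb after, lay outside genes and were both higher after cocaine. The former rose from 4.97 ± 3.40 (SD, n = 3) to 15.8 ± 0.21 (SD, n = 2) and the latter from 5.29 ± 2.01 to 18.4 ± 1.90 normalized reads. The neurexin gene Nrxn2 held 0 listed sites, which does not show that occupancy there was equal.

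**Figure D2:**
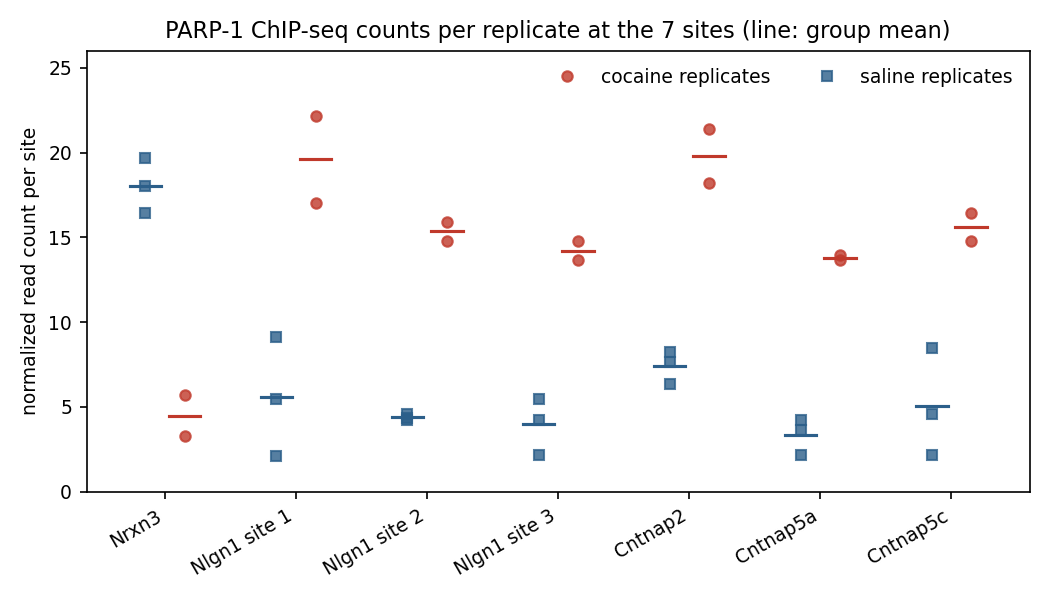
Normalized read counts at the 7 sites in each of the 2 cocaine replicates (circles) and 3 saline replicates (squares), with lines at the group means. Cocaine values lie between 13.64 and 22.18 at the 6 higher sites and at 3.29 and 5.68 at Nrxn3, and at no site do the groups overlap.

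Neuroligin-1 sits in the membrane of excitatory synapses and binds neurexins from the postsynaptic side. At Nlgn1 site 1 (chromosome 3, 25473701 to 25474900) the cocaine replicates held 22.18 and 17.04 normalized reads and the saline replicates 2.12, 9.12 and 5.46. The saline replicates were spread widely here, from 2 to 10 reads. The rise on limma's log2 scale was 1.80 ± 0.52 (SE), with an adjusted p of 0.0169 (limma, Benjamini-Hochberg). The smallest cocaine value was 1.87 times the largest saline value, the second narrowest gap of the 7 sites.

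Nlgn1 site 2 (25561901 to 25562900) lay 87.0 kb from site 1. It held 14.79 and 15.91 after cocaine and 4.25, 4.56 and 4.37 after saline, the closest saline replicates of any of the 7 sites. The reads behind these saline values were 4, 5 and 4, so their closeness is no measure of precision. Its lowest cocaine value was 3.24 times its highest saline value. The rise was 1.60 ± 0.22 (SE; limma adjusted p = 0.00537).

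Nlgn1 site 3 (26069701 to 26070700) lay another 506.8 kb along. It held 14.79 and 13.64 after cocaine and 4.25, 5.47 and 2.18 after saline. Again every cocaine value exceeded every saline value. The rise was 1.67 ± 0.36 (SE; limma adjusted p = 0.00733). The ratios of cocaine to saline reads at sites 1, 2 and 3, corrected for depth, were 3.48 (1.94 to 6.52), 3.47 (1.77 to 7.20) and 3.52 (1.75 to 7.55), with exact 95% intervals for counting error. The sites were listed for such differences in the same libraries. The ratios may therefore be too large and too alike, and the intervals do not allow for this. Summed over the 3 sites, cocaine replicates held 51.8 and 46.6 normalized reads and saline replicates 10.62, 19.15 and 12.01. Saline replicate 2 was the highest of the saline replicates at all 3 sites. The next listed site beyond site 3, in the gene body of Spata16, lay 670.8 kb on and rose by 1.74 ± 0.28 (SE; limma adjusted p = 0.00537).

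Nlgn1 was 1 of 7 genes with exactly 3 listed sites, while 3 genes had more and 635 of the 688 genes with a site had 1. The other neuroligin genes looked for, Nlgn2, Nlgn3 and Nlgn4l, held 0 listed sites.

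Cntnap2 encodes Caspr2, a transmembrane protein of axons. Its site (chromosome 6, 45555001 to 45556200, plus strand, 545.5 kb from the start and 24.3% along the transcript) held 21.36 and 18.18 normalized reads after cocaine and 6.37, 8.21 and 7.64 after saline. This was the highest saline level among the 6 higher sites, 7.41 ± 0.94 (SD, n = 3), against 19.8 ± 2.25 (SD, n = 2) after cocaine. The rise of 1.31 ± 0.25 on limma's log2 scale (SE; adjusted p = 0.00583) was the smallest of the 6. It was larger than at only 4.80% of the 667 higher gene body sites of the table. The authors' deposited table gave the middle 1000 bp of the site (45555101 to 45556100) a log2 fold change of 1.89 and the whole site 1.42. Corrected for depth, cocaine exceeded saline 2.69-fold in reads (exact 95% interval 1.57 to 4.73).

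Cntnap5a and Cntnap5c are related genes of the same family, whose products are less studied. The Cntnap5a site (chromosome 1, 118456101 to 118457100, plus strand) lay near the end of its gene, 97.7% along the transcript and 20.6 kb before its end. It held 13.97 and 13.64 after cocaine and 4.25, 3.65 and 2.18 after saline. These were the lowest cocaine and the lowest saline means of the 6 higher sites, 13.8 ± 0.23 (SD, n = 2) and 3.36 ± 1.07 (SD, n = 3). The value of 13.64 equals the minimum of the second cocaine replicate over the 1567 higher sites with a mean count under 100, so the small SD is no measure of precision. The same minimum was met at Nlgn1 site 3. The rise at Cntnap5a was 1.80 ± 0.30 (SE; limma adjusted p = 0.00537).

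The Cntnap5c site (chromosome 17, 58217101 to 58218100, plus strand, 308.6 kb from the start) held 16.43 and 14.77 after cocaine and 8.50, 4.56 and 2.18 after saline. It had the narrowest gap of the 7 sites, with the lowest cocaine value 1.74 times the highest saline value. The rise was 1.59 ± 0.48 (SE), and the limma adjusted p of 0.0196 was the largest of the 7. The reads behind its saline values were 8, 5 and 2. Cntnap5a and Cntnap5c are copies within a family, and the handling of reads that match more than 1 place is not given in the sources used here.

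The next listed site after that of Cntnap5c, 1041 kb on in a gene desert, went the other way, from 18.6 ± 3.21 (SD, n = 3) after saline to 4.74 ± 0.27 (SD, n = 2) after cocaine. The listed sites before that of Cntnap5c, on both sides of that of Cntnap5a and after that of Cntnap2 were higher after cocaine, at gaps of 958.3 to 2589 kb. Cntnap1, Cntnap3, Cntnap4 and Cntnap5b held 0 listed sites.

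The 6 higher sites were compared with each other within libraries, as the cocaine minus saline difference in the log2 ratio of a pair of sites. None of the 15 pairs had groups that did not overlap. The largest difference in change, between Nlgn1 site 1 and Cntnap2, was 0.49 with an SE of 0.52. The smallest exact two-sided permutation p was 0.4 (adjusted 1), and groups of 2 and 3 cannot give a p below 0.2. With so few replicates this test could not have detected a difference in rise between these sites at any depth. It therefore does not show that they rose alike. At each of the 7 sites the exact permutation p was 0.2, the smallest possible. A factor applied to a whole library cancels in the ratio of its sites except through the pseudocount, and the change of the 6 higher sites minus that of Nrxn3 was 3.45 on scaled values and 3.46 on unscaled reads. The mean difference of log2(value + 1) between the 6 sites and Nrxn3 was 2.07 and 1.30 in the cocaine replicates and -1.76, -1.39 and -2.16 in the saline replicates, a description only, since the directions define the sites.

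**Figure D3:**
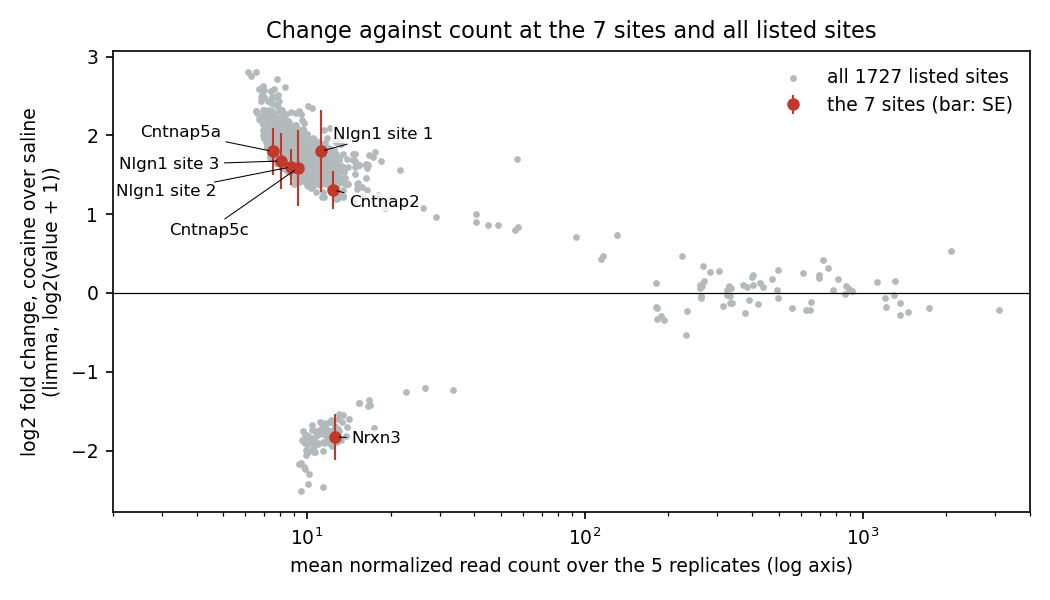
limma log2 fold change (cocaine over saline, with SE bars) against the mean normalized read count of the 5 replicates on a log axis, for the 7 sites (red) and all 1727 listed sites (grey). The 6 higher sites, from 1.31 to 1.80, and Nrxn3, at -1.83, lie within the clouds of low-count listed sites.

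At all 7 sites no replicate of one group reached the range of the other, as was true of 92.2% of all listed sites in the higher and 6.72% in the lower direction. The calls changed when either cocaine replicate was left out. Without cocaine replicate 1, limma passed Nrxn3 and 2 of the 6 higher sites, Nlgn1 site 2 and Cntnap5a, and 4 of the 6 had an unadjusted p under 0.05. That fit passed 41.2% of all listed sites as higher and 4.81% as lower, with 1318 of 1727 at an unadjusted p under 0.05. Without cocaine replicate 2 it passed 0 of the 7, with 5 of the 6 higher sites and Nrxn3 at an unadjusted p under 0.05, and it passed 0 of all 1727 sites, with 1248 at an unadjusted p under 0.05. Both fits rested on 1 cocaine sample, assumed to vary like the saline samples. Without saline replicate 2, Cntnap5c had an adjusted p of 0.0552 (limma) and the other 6 sites passed, beside 86.9% of all listed sites as higher and 5.27% as lower. On the reads of all 5 replicates, an exact conditional test, which measures counting error only, passed all 7 at an adjusted p of at most 0.000193, beside 91.9% of all listed sites as higher and 6.31% as lower.

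The authors' enrichment, the ratio of a group's count to a background they set, was mostly low at these sites. After cocaine it was 2.74, 2.31 and 1.63 at Nlgn1 sites 1 to 3, 1.55 at Cntnap2, 1.42 at Cntnap5a and 1.90 at Cntnap5c. Over the 667 higher gene body sites the median was 2.68, and 5 of the 6 values lay below it. Cntnap5a was near the low end, with 5.25% of those sites lower. After saline the 6 values ran from 0.36 to 0.80, below background, but the median over the 667 higher gene body sites was also below it, at 0.81. The Nrxn3 site went from 1.31 after saline to 0.31 after cocaine, against medians of 1.395 and 0.315 over the 18 lower gene body sites.

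**Figure D4:**
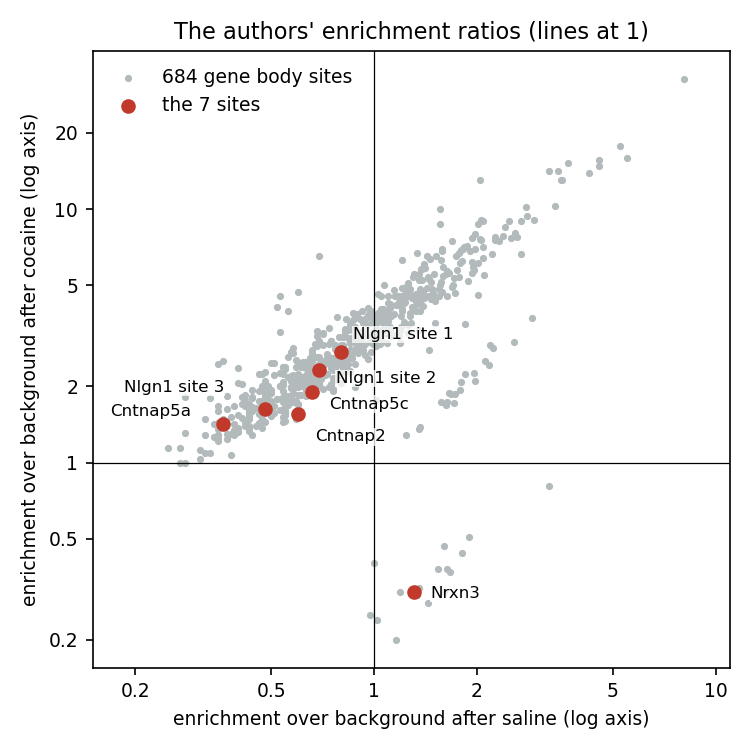
The authors' enrichment over background after cocaine against that after saline, on log axes, for the 7 sites (red) and 684 gene body sites of the table (grey, 1 site with an infinite ratio left out). The 6 higher sites have values below 1 after saline and between 1.42 and 2.74 after cocaine, and Nrxn3 has 1.31 and 0.31.

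Dividing a count by its enrichment gives the background behind it. Per kb of site this background, taken from the cocaine values, was 5.96, 6.65 and 8.72 normalized reads at Nlgn1 sites 1 to 3, 10.6 at Cntnap2, 9.72 at Cntnap5a and 8.21 at Cntnap5c. The median over higher gene body sites was 5.63, so all 6 lay above it. Cntnap2 exceeded 90.7% of those sites, Cntnap5a 88.6% and Nlgn1 site 1 55.2%. The Nrxn3 value of 11.1, also from cocaine, lay close to the median of 10.4 for lower gene body sites. Its cocaine ratio was only 0.31, so rounding makes this value less exact. Over the whole Nrxn3 site the background was 14.5 from the cocaine ratio and 13.8 from the saline ratio. The part of this background in the differences was not tested.

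Genes of proteins that bind or work with this adhesion system were looked for by name. The list held 128 symbols outside the 5 genes, older and newer names of a gene counted separately, and was chosen with results of these data known. Of these, 10 genes held 11 listed sites, all in gene bodies, and all 11 passed limma's test as higher and 0 as lower, read against the same 90.2% and 5.27%. Of the 685 gene body sites of the table, 667 were higher and 18 lower, whether or not they passed. The median log2 fold change of the 11 sites of the list was 1.60 (range 1.45 to 2.02).

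Among neurexin ligands, Lphn2, the gene of a latrophilin receptor, rose from 4.89 ± 2.87 (SD, n = 3) to 16.5 ± 2.40 normalized reads (SD, n = 2), and Nxph1, the gene of neurexophilin-1, from 4.14 ± 1.30 to 14.5 ± 1.96. Grid1, the gene of a delta receptor that neurexins reach through cerebellins, rose from 2.71 ± 0.58 to 14.0 ± 1.15. Of the cerebellin genes themselves, 0 held a listed site.

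On the postsynaptic side, the scaffold genes Magi1, Magi2 and Dlgap2 held 4 sites. Magi1 rose from 4.43 ± 1.69 to 15.0 ± 1.97 and Magi2 from 6.60 ± 2.64 to 18.9 ± 2.26. The Dlgap2 site of smaller authors' adjusted p, 722.9 kb from the start, rose from 4.51 ± 1.92 to 16.0 ± 1.75. On the presynaptic side, Apba2, the gene of the adaptor Mint2, rose from 4.21 ± 2.37 to 17.3 ± 1.24. Epb4.1l3, which encodes a protein 4.1 family member that links membrane proteins to the cytoskeleton, rose from 5.49 ± 2.89 to 16.4 ± 2.33. Ptprd, a receptor phosphatase gene of synapse formation, rose from 4.38 ± 1.03 to 14.8 ± 0.01, and Kcnab2, which encodes a Kv1 channel subunit, from 5.39 ± 2.08 to 16.9 ± 1.82. The cocaine values at Ptprd were 14.79 and 14.77, and their small SD is no measure of precision. The contactin genes and the neuroligin regulators Mdga1 and Mdga2 held 0 listed sites.

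**Figure D5:**
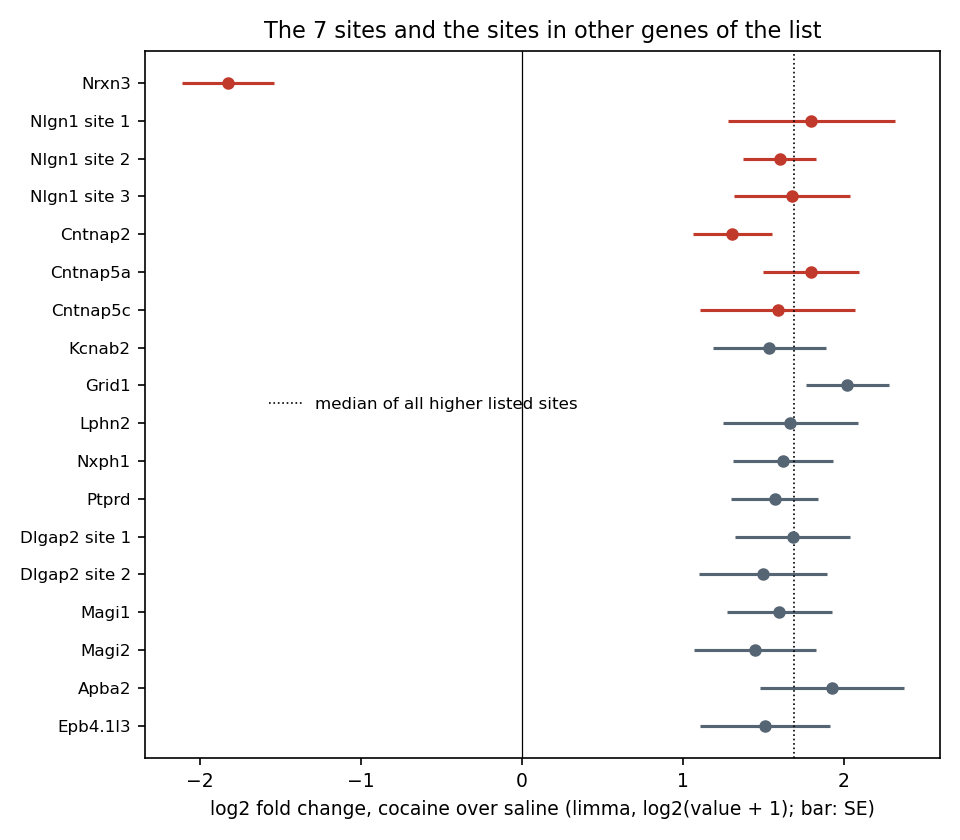
limma log2 fold change, cocaine over saline, with SE bars, at the 7 sites (red) and at the 11 sites in 10 other genes of the list (grey), with a dotted line at 1.69, the median of all higher listed sites. Of the sites shown only that of Nrxn3 lies to the left of 0.

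Likeness of pattern was measured as the Euclidean distance over the 5 replicates on log2(value + 1), with 1 site per gene. The genes nearest to the mean profile of the 6 higher sites were Spata16 (0.16), C8a (0.22) and Abi3bp (0.26). Those nearest to the Nrxn3 site were Sphkap (0.38), Csn1s2b (0.46) and Vmn2r98 (0.48). Only 22 listed sites in or near genes were lower, against 748 higher, so there were few to choose from. The sites of Csn1s2b and Vmn2r98 were annotated to promoters, unlike that of Nrxn3. Over 5 replicates with few reads, such distances describe these libraries only.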

How the data were processed

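ChIP-seq for PARP-1 was done by the submitters on accumbens punches, with 250 to 350 bp fragments, 21 PCR cycles and 100 bp reads, per the labels' protocols. Build mm9 and CASAVA 1.8.2 are named in the submitters' processing notes. For the aligner, duplicates and listing threshold, the setting is not given in the sources used here. The deposited table's name gives diffReps with a negative binomial test. Per the file headers, the deposited per-replicate values are normalized read counts, the group averages a signal, the enrichments a ratio, the fold changes log2, and the p-value columns the authors' own. Control was taken as saline, following the series design text.

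Each library's values stepped evenly, and dividing by the step gave whole numbers to within 0.1 read for 100.0% of 8635 values, so reads were recovered. They numbered 82360 and 61292 over listed sites after cocaine and 47757, 55084 and 46406 after saline. The shallowest library had 72.3% of the depth of the deepest, by the authors' scaling. limma 3.58.1 (R 4.3.3) was fitted to log2(value + 1) over all 1727 sites without a filter, with Benjamini-Hochberg adjustment. The pseudocount of 1 understates changes of low counts. The exact conditional test compared the cocaine share of reads with the cocaine share of depth, 41.5%, and was added after seeing the data. Reads amplified by PCR and carrying no molecular identifiers may repeat a molecule. The intervals and the exact conditional test cover counting error at most, and may understate even that. Neither allows for the selection of the sites on the same libraries. The genes and lists were chosen with earlier results of these data known. Every site of the 5 genes was named. Of the listed other genes, values were given for at most 10, by smallest authors' adjusted p, with the nearest listed sites and the 3 genes of most similar profile. Some genes and a neighbouring site are not reported here.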

Additional observations from a re-analysis of the deposited data

How the results depend on the processing

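The direction at each of the 7 sites held under every alternative run, which is no independent support. The sites were listed for their difference in these same libraries. Their groups do not overlap, so leaving out a replicate could not reverse a direction. Leaving out each replicate in turn, limma passed 0 to 6 higher and 0 to 1 lower sites of the 5 genes, and 0 to 11 higher sites of the other listed genes (3 without cocaine replicate 1, 0 without cocaine replicate 2, with 10 and 8 at an unadjusted p under 0.05). Over all 1727 sites the same fits passed 711 as higher without cocaine replicate 1, 0 without cocaine replicate 2 and 1500 to 1560 without a saline replicate. log2 fold changes then ran from -2.15 to -1.51 at Nrxn3, from 1.34 to 2.19, 1.55 to 1.65 and 1.38 to 1.90 at Nlgn1 sites 1 to 3, from 1.20 to 1.42 at Cntnap2, from 1.58 to 1.94 at Cntnap5a and from 1.19 to 1.98 at Cntnap5c. The mean change of the 6 higher sites minus that of Nrxn3 was 3.45 and ranged from 3.07 to 3.84. With a pseudocount of 4 it was 2.60, since a larger pseudocount shrinks changes at low counts. Pseudocounts of 0.5 and 4, a fit to sites with a mean count under 100, trend and robust shrinkage, unscaled reads, the authors' test and the exact conditional test each passed all 7 sites, as they did 1613 to 1709 of all 1727 (1657 of 1658 in the fit under 100). A filter at a mean count of 8 dropped Cntnap5a, and the other 6 passed, as did 1350 of 1426 sites in all. The planned quasi-likelihood count test was not run, and the exact conditional test stands in its place. No paired analysis was possible because the values carry no replicate numbers. Depth limits precision: the lower group at a site rested on 2 to 10 reads per replicate.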

Other observations

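The background behind the authors' enrichment moved in steps. After cocaine, at 1514 sites where rounding allowed the check, 100.0% of the backgrounds were whole multiples of 0.511 normalized reads within 0.1 step. In those steps the background was 14, 13 and 17 at Nlgn1 sites 1 to 3, 25 at Cntnap2, 19 at Cntnap5a and 16 at Cntnap5c, each within 0.1 step. At Nrxn3, from the saline ratio and a step of 0.491, it was 28. After saline, 67.2% of 999 such sites were at whole steps of 0.491, so the value at Nrxn3 is less sure. How the authors set the background is not stated in the labels or the table.

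The 3 sites of Nlgn1 and the 3 sites of the contactin-associated protein genes held the same summed reads in each cocaine replicate, 63 and 41. This equality is a description only, since the sites were listed for their difference in these same libraries. In the saline replicates the sums were 10, 21 and 11 reads for Nlgn1 and 18, 18 and 11 for the contactin-associated protein genes.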
